A study of Mus musculus with 4 samples.

Results

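CpG islands that lie inside genes, away from any gene start, were described in mouse embryonic stem cells (ESCs) and in neurons derived from them. Islands were called on the mm10 sequence where more than 200 bp had a GC content of 50% or higher and over 0.6 of the CpGs that their base composition predicts, and an island was kept when it lay within a gene of GENCODE release M21 and over 1 kb from the start of every gene. The rule also asked for at least 5 CpG sites listed in all 4 methylation tables, called shared sites below. Of 27125 islands called, 6534 lay inside genes in this way, and 3034 of them had 5 or more shared sites. These 3034 islands lay in 2352 genes, and 2762 of them were in a protein-coding gene. They held 89102 shared sites of the 156853 CpGs in their sequence, with a median of 18 per island and a range of 5 to 288. An island's level was the unweighted mean percent methylation of its shared sites.

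The data were 4 reduced representation bisulfite sequencing (RRBS) libraries, 1 each from ESCs and from neurons of the *R1* and of the *Tet/Tet* line. Values over all 4 libraries are given below in the order of *R1* ESCs, then ESCs of *Tet/Tet*, then neurons of *R1*, then those of *Tet/Tet*. *R1* is the wild type, and *Tet/Tet* is a transgenic line derived from *R1* with tet-off constructs knocked in behind the *Dnmt1* promoter, which the study describes as overexpressing the maintenance methyltransferase DNMT1. ESCs were grown with LIF, and the *Tet/Tet* cells also with puromycin at 1 µg/ml and neomycin at 150 µg/ml. Neurons of both lines came from embryoid bodies kept for 2 days without LIF and then for 10 to 15 days in a neural medium, and no sorting of neurons was described, so that other cells could be present. There were no replicates, so no difference could be set against a spread between samples, and no test was made. The ESC and neuron libraries belonged to different sequencing projects, and cell type and project cannot be told apart, whereas each *Tet/Tet* library shared its project with its *R1* counterpart. The tables give a percent per CpG and no read counts, so the depth behind each value is unknown. On the chromosomes used, they listed between 2310510 sites (*R1* ESCs) and 5295489 sites (*R1* neurons). For *Tet/Tet* neurons, part of chromosomes 7 and 10 and the whole of 8 and 9 were not analysed here, and islands there are not among the 3034. Cell type markers could not be checked, since methylation alone was measured.

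A CpG island is a stretch in which the dinucleotide CpG has not been lost over evolution as it has elsewhere in the genome. Most islands cover promoters and stay free of methylation in nearly every cell, whereas the bodies of transcribed genes usually carry methylation that is laid down by DNMT3 enzymes and copied at replication by DNMT1. Islands inside genes thus sit where both habits meet, and some of them are the starts of alternative transcripts. RRBS cuts DNA with MspI at CCGG, which brings CpG-rich stretches into the library.

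Stretches of 4 islands are printed to show what was read. They come from the island with the most shared sites among those over a first exon, a last exon, only an internal exon, and an intron alone, in a window of 200 bp chosen outside untranslated regions. All are the plus strand of mm10 written 5′ to 3′, and capitals mark CpGs listed in all 4 libraries. A label names the class of the whole island, and its window was not required to lie in an exon.
Gnas, first exon: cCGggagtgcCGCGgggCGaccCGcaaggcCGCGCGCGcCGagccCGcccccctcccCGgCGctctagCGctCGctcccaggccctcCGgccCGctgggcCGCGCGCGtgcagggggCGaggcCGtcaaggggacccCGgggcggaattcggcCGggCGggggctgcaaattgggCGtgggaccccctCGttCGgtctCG
Zfp316, last exon: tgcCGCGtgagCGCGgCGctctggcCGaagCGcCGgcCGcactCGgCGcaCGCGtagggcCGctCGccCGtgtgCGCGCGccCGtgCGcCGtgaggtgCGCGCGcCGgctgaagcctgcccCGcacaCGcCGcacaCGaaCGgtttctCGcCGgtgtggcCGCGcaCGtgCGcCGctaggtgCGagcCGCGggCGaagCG
Begain, internal exon: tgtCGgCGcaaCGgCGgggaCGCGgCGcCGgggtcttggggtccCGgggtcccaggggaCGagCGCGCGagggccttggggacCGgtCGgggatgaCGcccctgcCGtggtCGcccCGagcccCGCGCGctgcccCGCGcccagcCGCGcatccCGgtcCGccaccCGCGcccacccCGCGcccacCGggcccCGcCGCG
Bcor, intron: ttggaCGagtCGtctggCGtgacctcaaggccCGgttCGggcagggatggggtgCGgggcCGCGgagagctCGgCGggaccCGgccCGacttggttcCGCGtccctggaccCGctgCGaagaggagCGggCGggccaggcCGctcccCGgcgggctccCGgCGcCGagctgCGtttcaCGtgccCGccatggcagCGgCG

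The stretch of Gnas, the imprinted gene of a stimulatory G protein subunit, was chr2:174330467-174330666 and held no coding base and 30 shared sites. Their mean methylation in *R1* was 0.873% in ESCs and 1.65% in neurons. The stretch of Zfp316, a zinc finger protein gene, was chr5:143253750-143253949 and lay wholly in coding sequence, with 43 shared sites. Its mean in *R1* was 1.07% in ESCs and 6.56% in neurons. The stretch of Begain, which encodes a protein of the postsynapse, was chr12:109052585-109052784 with 36 shared sites, and that of Bcor, which encodes a corepressor of BCL6, was chrX:12087152-12087351 with 28. Neither held a coding base. Their means in *R1* neurons were 5.84% and 3.63%. The mean of each of these 4 windows was under 10% in all 4 libraries.

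A further 3 stretches, chosen after their values were seen, show islands that differed between libraries. The first pair comes from the island in a first exon and the island in the last exon of Bcl11a, a zinc finger transcription factor of neurons and blood cells. The other is the intron island with the most shared sites among those of repeat sequence, in Acnat1.
Bcl11a, first exon: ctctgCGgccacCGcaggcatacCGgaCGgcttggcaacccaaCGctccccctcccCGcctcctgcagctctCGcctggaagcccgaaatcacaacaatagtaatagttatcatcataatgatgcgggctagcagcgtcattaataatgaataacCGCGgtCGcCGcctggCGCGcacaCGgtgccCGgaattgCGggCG
Bcl11a, last exon: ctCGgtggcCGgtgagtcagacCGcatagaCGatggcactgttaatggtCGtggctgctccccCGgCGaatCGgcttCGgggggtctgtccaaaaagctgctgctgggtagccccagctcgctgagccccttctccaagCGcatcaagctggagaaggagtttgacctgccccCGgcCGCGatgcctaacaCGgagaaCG
Acnat1, intron: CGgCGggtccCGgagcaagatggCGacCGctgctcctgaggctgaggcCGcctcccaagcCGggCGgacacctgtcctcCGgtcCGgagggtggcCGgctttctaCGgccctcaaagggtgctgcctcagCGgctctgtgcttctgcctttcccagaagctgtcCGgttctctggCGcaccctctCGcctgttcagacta

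The first Bcl11a stretch, chr11:24081553-24081752, had a mean of 1.47% (*R1*) and 1.53% (*Tet/Tet*) in ESCs and of 2.30% and 3.74% in neurons, over 17 shared sites. It held no coding base. The other Bcl11a stretch, chr11:24164422-24164621, is coding sequence throughout, and over its 15 shared sites the 4 means were 8.48%, 3.80%, 91.4% and 19.7%. Every one of the 15 sites was at 85.2% or more in *R1* neurons, and none exceeded 50% in *R1* ESCs. The Acnat1 stretch, chr4:49466388-49466587, had means of 29.1%, 31.8%, 80.3% and 37.6% over 16 shared sites, and its sites ran from 0 to 100% in every library. CpG-rich sequence inside a gene was therefore found at both ends of the scale.

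In ESCs most of the 3034 islands were nearly unmethylated. The median level was 4.95% in *R1* (quartiles 2.15 and 18.2%) and 3.82% in *Tet/Tet* (2.04 and 17.1%). Levels under 10% were found in 64.7% and 66.9% of the islands, and 80% or more in 1.62% and 2.21%. In *R1* neurons the islands fell into a low and a high group, with a median of 37.4% between quartiles of 4.41 and 88.9%. There 1110 islands were under 10% and 1070 were at 80% or more. In *Tet/Tet* neurons the high group was nearly absent. The median was 6.06% (quartiles 2.4 and 18.1%), 44 islands were at 50% or more and 10 at 80% or more. *R1* neurons had the highest of the 4 levels in 2545 islands (83.9%). The median in *R1* neurons depended on which islands were kept. It was 15.7% with 10 or more shared sites, 15.3% without repeat sequence and 5.98% under a stricter definition of an island (over 500 bp, 55% GC and a ratio above 0.65), and it was 81.4% over 1 kb from any transcript start. Under 10% in all 4 libraries were 1094 islands, and 6 islands were at 80% or more in all 4.

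**Figure D1:**
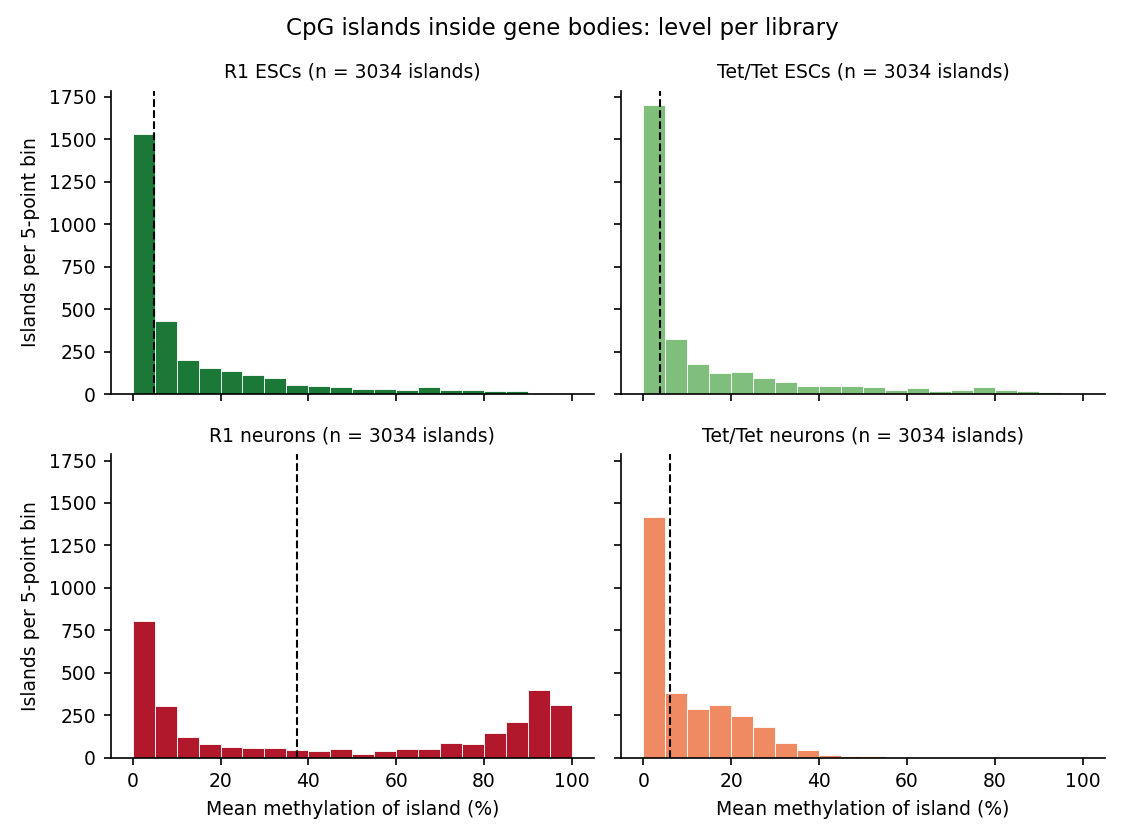
Number of the 3034 islands in each bin of 5 percentage points of mean methylation (%), 1 panel per library, with the median as a dashed line. *R1* neurons show a group near 0 and a group near 100%, and the other 3 libraries show mainly the group near 0.

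The islands inside genes lay between those at promoters and those between genes. Over the 9378 islands within 1 kb of a gene start, the medians were 1.97% and 2.12% in ESCs and 2.94% and 2.29% in neurons, *R1* first. Over the 2347 intergenic islands they were 25.4%, 25.7%, 85.4% and 19%. The share at 50% or more in *R1* neurons was 4.87% at promoters, 46.3% inside genes and 78.1% between genes. The order was the same in each of the other 3 libraries. At the limits of the rule, the 143 islands with 4 shared sites had a median of 91.0% in *R1* neurons and the 162 members with 5 had 92.5%. The 397 promoter islands at 500 bp or more from a gene start were at 4.94% there, and the 232 members up to 1500 bp from one at 7.64%.

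The level followed the part of the gene that an island overlapped. A total of 770 islands overlapped a first exon of a transcript of a gene that contained them, 551 a last exon, 53 both, 655 only internal exons and 1005 no exon. More than 1 gene contained 203 of the 3034 islands, so the exon could belong to a gene other than the one named. First exon islands were the lowest in all 4 libraries, with medians of 2.05% (*R1*) and 2.2% (*Tet/Tet*) in ESCs and of 3.33% and 2.38% in neurons. Last exon islands were at 5.70%, 3.96%, 64.9% and 9.30%. The gap between the medians was thus 61.5 percentage points in *R1* neurons, and 3.65, 1.76 and 6.92 points in the order *R1* ESCs, *Tet/Tet* ESCs and *Tet/Tet* neurons. Under the stricter definition the gap in *R1* neurons was 31.6 points. At 50% or more in *R1* neurons were 43 of 770 first exon islands (5.58%) and 298 of 551 last exon islands (54.1%). In *Tet/Tet* neurons these counts were 0 and 2. Internal exon islands resembled last exon islands, at 7.54%, 5.27%, 79.3% and 11%. The 53 islands over both a first and a last exon were in between, with 23.8% in *R1* neurons.

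**Figure D2:**
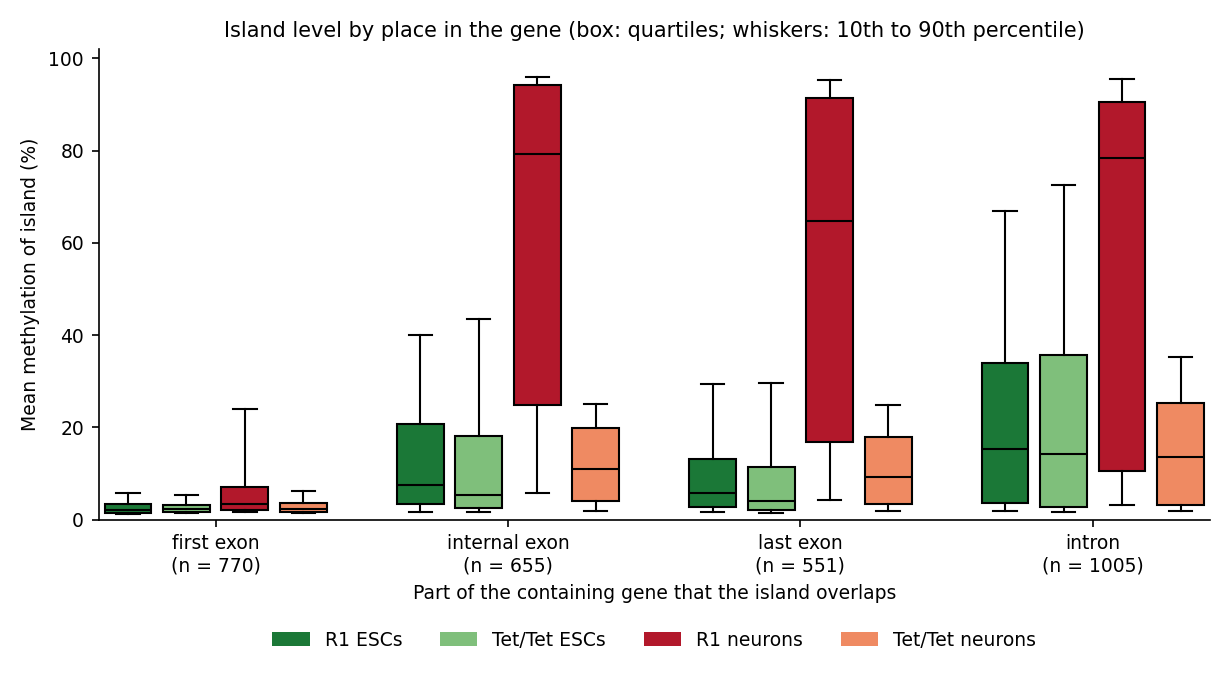
Mean methylation (%) of islands by the part of the gene they overlap, with a box per library from quartile to quartile, the median as a line and whiskers at the 10th and 90th percentiles. First exon islands have low medians in every library, and the other classes drawn have medians between 64.9 and 79.3% in *R1* neurons. The 53 islands over both kinds of end exon are not drawn.

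Nearly all first exon islands were also close to the start of an annotated transcript, although none was near the start of a whole gene. This held for 756 of 770 first exon islands and for 65 of 551 last exon islands. The 14 first exon islands with no transcript start within 1 kb had *R1* medians of 6.21% in ESCs and 63.7% in neurons. The 486 last exon islands with none were at 6.15% and 71.5%, so that the gap in *R1* neurons was 7.86 points away from transcript starts, and in the other 3 libraries the first exon islands were the higher ones there by 0.05 to 3.38 points. Over all classes, the 1230 islands within 1 kb of a transcript start had medians of 2.54%, 2.38%, 4.72% and 2.74%, and the other 1804 had 10.9%, 9.64%, 81.4% and 13.7%. Last exon islands near a transcript start were at 29.9% in *R1* neurons, above first exon islands near one (3.26%). Distance from a transcript start and exon class were thus nearly the same division of the first exon islands, and their parts cannot be told apart there.

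Last exon islands also differed by what they contained. The 256 that were coding sequence without any untranslated base had *R1* medians of 8.81% in ESCs and 85.5% in neurons, and the 254 that reached into an untranslated region were at 4.25% and 36.0%. Length did not remove the contrast with first exons. Among islands of 500 bp or less, first exon islands were at 4.35% and last exon islands at 82.0% in *R1* neurons, and above 500 bp the values were 2.95% and 36.8%. Internal exon and intron islands above 500 bp also had the lower median in *R1* neurons.

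The same contrast was found within single genes. In 55 genes, 1 or more islands were classed as first exon and others as last exon, and the island with the most shared sites of each kind was compared. In *R1* neurons the last exon island was higher by at least 10 points in 42 genes and lower in 4, and the medians were 4.52% and 79.2%. In *R1* ESCs the counts were 13 and 2, in *Tet/Tet* ESCs 13 and 3, and in *Tet/Tet* neurons 26 and 2. The difference was thus most frequent in *R1* neurons and present in all 4 libraries.

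In Bcl11a, the first exon island (69 shared sites) was at 1.97% (*R1*) and 1.70% (*Tet/Tet*) in ESCs and at 2.05% and 2.95% in neurons, and the last exon island (41 sites) at 8.33%, 5.81%, 91.9% and 21.2%. In Plec, which encodes the cytoskeletal linker plectin, the first exon island was at 11.3% and the last exon island at 93.6% in *R1* neurons, over 35 and 105 sites. Both genes were alike in that only the last exon island was high, and only in *R1* neurons. In Prickle1, a planar cell polarity gene, *R1* neurons had 1.43% and 94.42%, and in ESCs the last exon island was at 23.2% in *R1* and 34.9% in *Tet/Tet*. In Tet3, which encodes an enzyme that oxidises methylcytosine, the values in *R1* neurons were 1.64% and 94.7%, and in Auts2, a gene of neuronal development, 2.80% and 96.9%. These islands had 108 and 19 shared sites in Tet3 and 152 and 17 in Auts2.

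Some genes showed a smaller or the opposite difference. Slc12a5, the neuronal potassium chloride cotransporter KCC2, had 2.87% in its first exon island and 40.7% in its last exon island in *R1* neurons, over 66 and 68 sites. Tbx1, a T-box factor of pharyngeal development, had 7.30% and 6.39%, and Hoxb8 had 3.16% and 2.95%, so both islands were low in these genes. The reverse order was found in Dlgap1, a postsynaptic scaffold gene, with 90.6% over 13 sites against 13.1% over 19, and in Samd4b, with 93.6% over 31 against 29.5% over 68. Hand1, a factor of heart and trophoblast development, and Tbr1, a factor of cortical projection neurons, were the other 2 of the 4, at 44.7% against 21% and at 22.9% against 9.01%. Chd7, a chromatin remodeller, was high in both, at 95.5% and 94.5%.

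**Figure D3:**
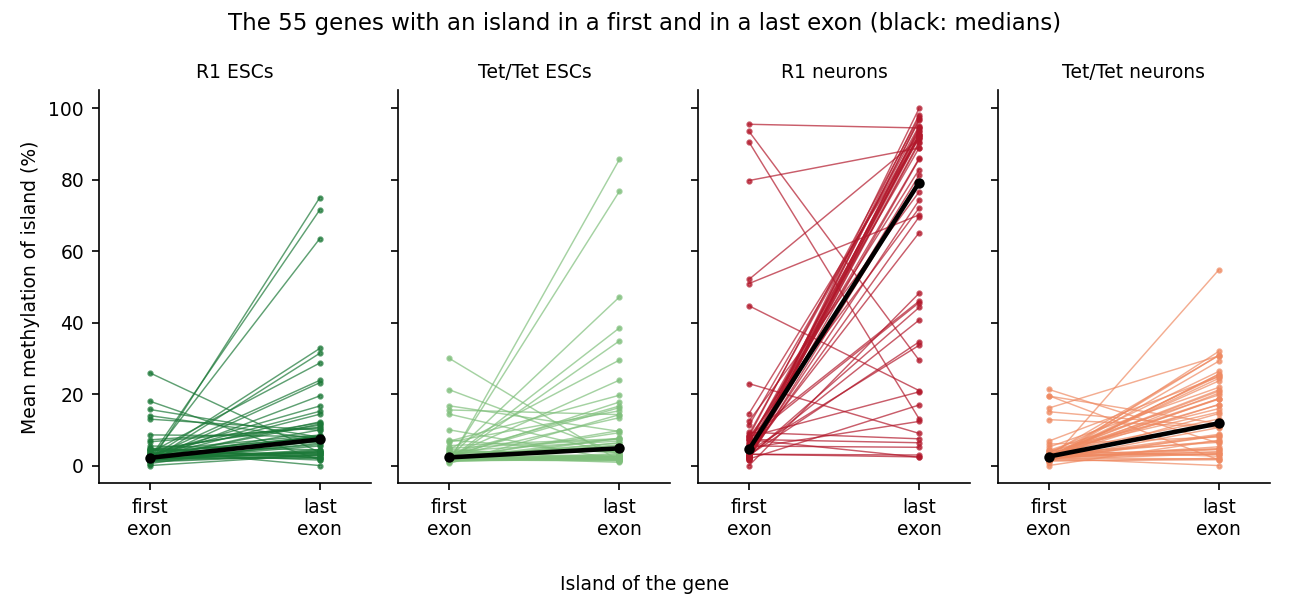
Mean methylation (%) of the first exon island and the last exon island of each of 55 genes, joined by a line, with 1 panel per library and the medians in black. Most lines slope steeply upward in *R1* neurons, where the medians are 4.52 and 79.2%, and few do in the ESC libraries.

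Along the length of the gene, *R1* neurons went from a median of 5.85% for islands in the first 20% of the gene to 80.6% in the last 20%, with 19.8%, 34.1% and 55.9% between. *R1* ESCs went from 3.0% to 8.25% and *Tet/Tet* neurons from 2.96% to 13.1%. With islands over a first exon left out, the share at 50% or more in *R1* neurons was 39.1% in the first 20% of the gene and between 62.7 and 67.9% in the other bins. Beyond the first bin the share thus changed little along the gene once first exon islands were left out.

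**Figure D4:**
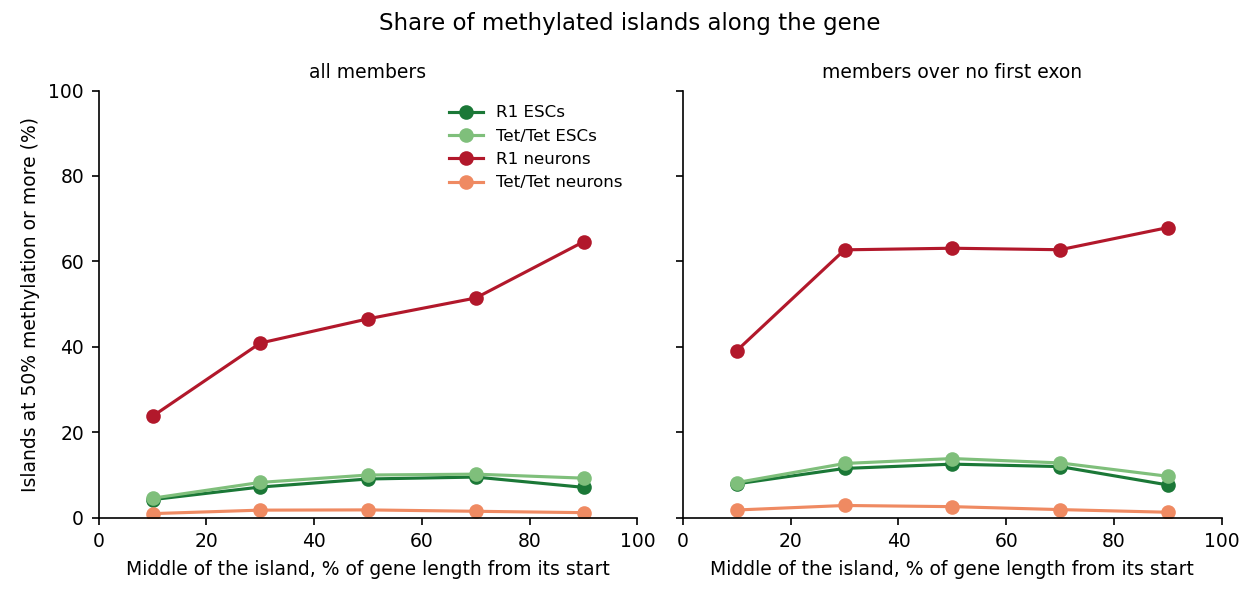
Share of islands at 50% methylation or more (%) in 5 bins of 20% of gene length, for all 3034 islands and for those over no first exon, with 1 line per library. In *R1* neurons the share goes from 23.8 to 64.6% over all islands and levels off after the first bin in the other panel.

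Introns held islands of different kinds. Of the 1005 islands over no exon, 553 had 50% or more of their bases marked as repeat in the reference sequence, against 2 of 770 first exon, 1 of 551 last exon and 3 of 655 internal exon islands. The repeat-derived intron islands were at 30.2% (*R1*) and 30.1% (*Tet/Tet*) in ESCs and at 88.5% and 23.0% in neurons, and 552 of 553 were at 50% or more in *R1* neurons. The 452 other intron islands were at 3.37%, 2.55%, 8.34% and 3.0%. Outside repeats, intron islands were thus nearer to first exon islands than to last exon islands. Intergenic islands divided in the same way, at 88.9% in *R1* neurons for 1699 with 50% or more in repeats and 10.2% for the other 648.

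The denser an island was in CpGs, the lower it was. In 4 groups of nearly equal size, from the lowest to the highest number of CpGs per 100 bp, the median in *R1* neurons was 87.7%, 77.8%, 18.5% and 4.17%, and in *R1* ESCs 17.1%, 9.90%, 3.63% and 2.13%. Over the 3034 islands, Pearson's r between CpG density and level was -0.54 in *R1* neurons and -0.39 in *R1* ESCs, given as a description, since islands of 1 library share its depth and base composition. Levels of the 2 ESC libraries were closely related over islands (r = 0.93), and those of the 2 neuron libraries less so (r = 0.74).

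*Tet/Tet* ESCs and *R1* ESCs differed little over most islands. The median difference was -0.13 points, and 2731 of 3034 islands differed by less than 10 points. A total of 186 islands (6.13%) were higher in *Tet/Tet* ESCs by at least 10 points and 117 (3.86%) were lower. Over all 14790 islands with 5 shared sites these shares were 4.11% and 2.26%. Of first exon islands 9 were higher and 3 lower, of last exon islands 25 and 18, of internal exon islands 41 and 26, and of intron islands 108 and 69. Islands with 50% or more of their bases in repeats, 561 of the 3034 (18.5%), held 100 of the 186 higher and 58 of the 117 lower ones. The ESC medians of these 561 were 30.2% in both lines. With unknown depth and few sites in such islands, how much of this exceeds reading error cannot be said.

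In neurons nearly every difference was in one direction. The median was -29.3 points, 1825 islands (60.2%) were lower in *Tet/Tet* neurons by at least 10 points and 2 were higher. Over all 14790 islands the shares were 34.5% lower and 0.0676% higher. The median was -12.2 points with 10 or more shared sites and -3.39 under the stricter definition, and -58.2 over 1 kb from any transcript start. Lower were 109 of 770 first exon islands (14.2%), 428 of 551 last exon islands (77.7%), 539 of 655 internal exon islands (82.3%) and 717 of 1005 intron islands (71.3%). The 1070 islands at 80% or more in *R1* neurons had a median of 20.7% in *Tet/Tet* neurons, and their ESC medians were 24.3% (*R1*) and 24.0% (*Tet/Tet*). The median of the 1110 islands under 10% in *R1* neurons was 2.18% in those of *Tet/Tet*. The 197 islands at 50% or more in both ESC libraries had neuron medians of 95.0% (*R1*) and 24.0% (*Tet/Tet*), the latter below their ESC medians of 69.5 and 75.6%.

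**Figure D5:**
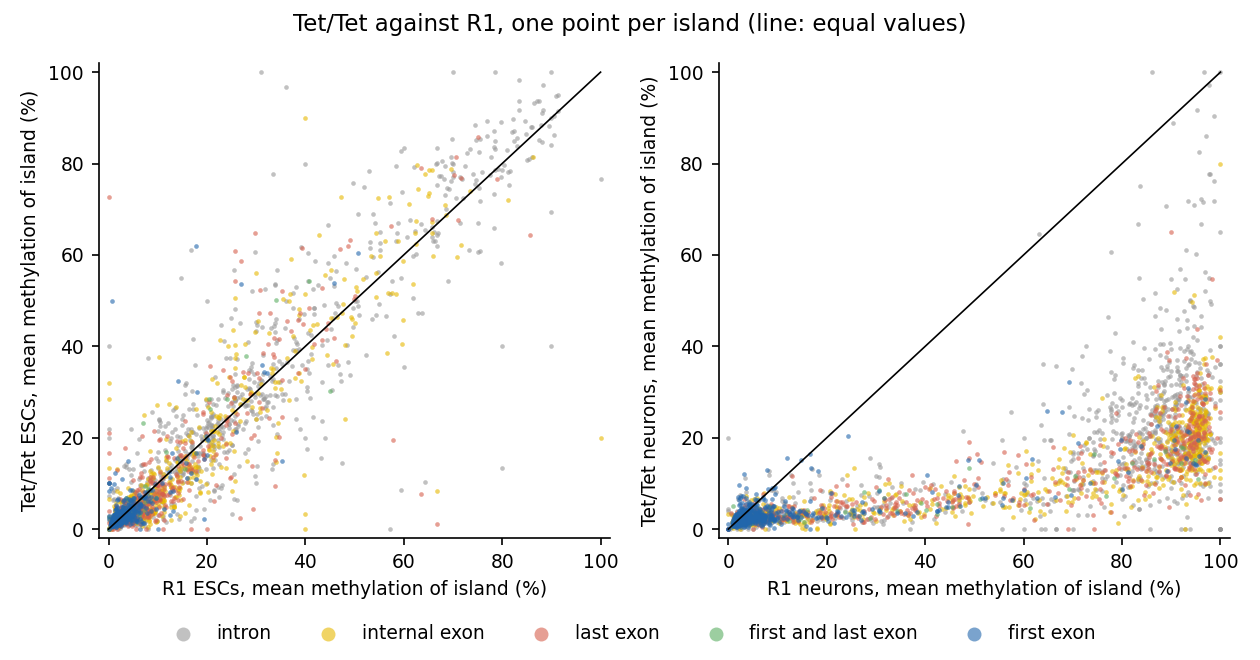
Mean methylation (%) of each island in *Tet/Tet* against *R1* cells, for ESCs on the left and neurons on the right, coloured by the part of the gene overlapped, with a line of equal values. ESC points lie along the line, and 2727 of the 3034 neuron points lie below it, with few above 40% in *Tet/Tet* neurons.

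From *R1* ESCs to *R1* neurons, 1807 islands were higher by at least 10 points and 2 were lower. The shares over all islands were 33.8% and 0.162%. Since both neuron libraries came from another project, this contrast is also one of projects. Among 1891 islands under 10% in both ESC libraries, 157 were at 80% or more in *R1* neurons, 5.17% of the 3034. These were 66 internal exon (10.1% of that class), 60 last exon (10.9%), 27 intron (2.69%) and 3 first exon islands (0.39%) and 1 over both kinds of end exon. Such islands were 0.469% of all promoter and 1.28% of all intergenic islands. Only islands under 10% in both ESC libraries could qualify, and among those the shares were 8.3% inside genes, 0.489% at promoters and 5.29% between genes. For last exon and intron islands they were 16.9% and 6.8%. Islands inside genes and between genes were thus closer when only islands low in ESCs were counted. The 157 islands are described further here. Their median in *Tet/Tet* neurons was 16.8%. Those with the most shared sites, picked after the values were seen, lay mostly in coding sequence.

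Shroom3, a regulator of apical constriction in the neural tube, had an island at chr5:92941539-92943085 (mm10), wholly coding, that was at 5.61% (*R1*) and 3.20% (*Tet/Tet*) in ESCs and at 89.3% and 20.8% in neurons, over 130 sites. Ccdc106 (chr7:5030182-5031983, 131 sites), with no coding sequence of that gene, was at 5.09%, 1.99%, 88.1% and 25.9%. Crb2, a gene of apical cell polarity (chr2:37793106-37793872, 63 sites), was at 3.68%, 2.09%, 80.5% and 17.5%. These 3 internal exon islands had the same order of libraries, with *Tet/Tet* ESCs lowest. Among last exon islands, Dact1, a modulator of Wnt signalling (chr12:71317907-71318774, 46 sites), was at 5.82%, 2.72%, 81.4% and 17%, and F2r, which encodes a thrombin receptor (chr13:95604060-95604766, 42 sites), at 6.72%, 4.03%, 91.2% and 22.1%.

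Islands with many shared sites in end exons were mostly low. Of the 5 first exon islands with the most sites, those of Bcor, Fam19a5, Rbpj (the DNA-binding partner of Notch) and Arid1a (a subunit of a chromatin remodelling complex) lay between 1.57 and 3.98% in all 4 libraries over 193 to 205 sites. The Gnas island, chr2:174327110-174331145 with 219 sites, was at 2.70% (*R1*) and 2.4% (*Tet/Tet*) in ESCs and at 19% and 4.6% in neurons, with an SD over sites of 24.6 in *R1* neurons. Of the 5 last exon islands with the most sites, Zfp503, Prr7 and Tbx1 were between 1.40 and 6.39% in all 4 libraries. Zfp316 (chr5:143253003-143255273, 217 sites) was at 2.87%, 1.71%, 21.8% and 9.44%, and Dact3, a relative of Dact1 (chr7:16885082-16886384, 145 sites), at 3.48%, 2.97%, 36.8% and 8.57%. Only in Gnas, Zfp316 and Dact3 was *R1* neurons at 10% or more among these 10.

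By function of the gene, islands in developmental transcription factor genes had a lower median in *R1* neurons than all members (37.4%), and those in neuronal and adhesion genes a higher one. These medians pool exon classes, whose mix differed. First exon islands were 39 of 189 in the transcription factor list, 22 of 116 in the neuronal list and 2 of 23 in the cadherin list, against 770 of 3034. The 189 islands in 113 genes of developmental transcription factors had medians of 4.13% (*R1*) and 2.88% (*Tet/Tet*) in ESCs and of 7.10% and 3.11% in neurons. Their last exon islands were also low, at 11.4% in *R1* neurons for 46, against 64.9% over all last exon islands. Lower in *Tet/Tet* neurons by at least 10 points were 64 of the 189 (33.9%), against 60.2% of all members. The share was near the 34.5% found over all 14790 islands with 5 or more shared sites. Foxo6 (last exon, 141 sites) was at 16.2% in *R1* and 3.68% in *Tet/Tet* neurons, and Nfib, a factor of brain and lung development (first exon, 177 sites), at 2.87% and 3.56%.

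The 116 islands in 76 genes of neuronal receptors and ion channels had neuron medians of 58.6% (*R1*) and 8.36% (*Tet/Tet*). Their 22 first exon islands were at 8.43% in *R1* neurons, 37 internal exon islands at 87.7% and 22 last exon islands at 34.4%. Over all members of these classes the medians were 3.33%, 79.3% and 64.9%, so the last exon islands of this list were the lower ones. Cacna1c, an L-type calcium channel (first exon, 158 sites), and Grm4, a metabotropic glutamate receptor (first exon, 143 sites), were at 2.80 and 3.16% in *R1* neurons. Grin2d, an NMDA receptor subunit (last exon, 118 sites), was at 16.9% in *R1* and 2.01% in *Tet/Tet* neurons, and Shank1, a postsynaptic scaffold (internal exon, 113 sites), at 21.8% and 5.14%. These islands, picked for their number of sites, were lower than the median of their list.

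The 23 islands in 15 genes of the cadherin superfamily had neuron medians of 83.8% (*R1*) and 15.5% (*Tet/Tet*), and 18 (78.3%) were lower in *Tet/Tet* by at least 10 points, against 60.2% of the 3034 and 34.5% of all islands. The 3 with the most sites were low, since Pcdh10, a protocadherin (81 sites), was at 2.68% in *R1* neurons, Pcdh17 (60 sites) at 9.18% and Cdh22 (56 sites) at 9.84%. Pcdh1, another protocadherin (last exon, 30 sites), was at 85.3% in *R1* and 13.4% in *Tet/Tet* neurons. The 23 islands in 17 genes of extracellular matrix and basement membrane were at 45.2% and 7.62%, with 17 (73.9%) lower. Among them Adamts20, a secreted protease gene (100 sites), was at 14.7% in *R1* neurons, Bcan, which encodes the proteoglycan brevican (41 sites), at 15% and Ltbp4 (38 sites) at 3.21%. Tnxb, tenascin XB (intron, 37 sites), was at 82.4% in *R1* and 18.1% in *Tet/Tet* neurons. The 55 islands in 31 genes of chromatin regulators were at 31.4% and 6.67%, with 29 (52.7%) lower, a share below that of the 3034. Their 14 first exon islands were at 2.86% and their 17 internal exon islands at 93.0% in *R1* neurons. The large intron island of Bcor (288 sites) was between 2.29 and 2.99% in all 4 libraries.

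The 11 islands in 9 imprinted genes, which are expressed from 1 parental copy, had neuron medians of 29.4% (*R1*) and 7.67% (*Tet/Tet*). A Gnas island over both kinds of end exon (chr2:174298464-174300959, 97 sites) was at 6.94% (*R1*) and 23.3% (*Tet/Tet*) in ESCs and at 49.0% and 13.4% in neurons. An intron island of Grb10, which encodes an adaptor of growth factor receptors (100 sites), was at 11%, 2.83%, 23.7% and 4.0%, and Blcap (first exon, 45 sites) was at 1.07%, 1.43%, 3.96% and 1.86%. This Gnas island was thus higher in *Tet/Tet* ESCs than in *R1* ESCs and the Grb10 island lower. The Gnas island with 219 sites, described above, differed little there, at 2.70% in *R1* and 2.40% in *Tet/Tet* ESCs.

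The islands with the largest differences rested on few sites. Furthest above *R1* ESCs in *Tet/Tet* ESCs were Pdzrn3 (last exon, 11 sites) from 0 to 72.7%, Adamts12 (intron, 7 sites) from 31.0 to 100%, and Gm47782 (intron, 6 sites) from 36.1 to 96.7%. Furthest below were Wdfy3 (internal exon, 5 sites) from 100 to 20%, Gm45194 (intron, 5 sites) from 80 to 13.3%, and Bcdin3d (last exon, 6 sites) from 66.7 to 1.11%. In Pdzrn3 all 11 sites were at 0 in *R1* ESCs. In neurons 6 islands tied for the largest difference downward, from 100% to 0% over 5 or 6 sites each. Of these, Cadm2, BC035044 and Cd46 were wholly repeat sequence, and Gm45194 was again among them. The only 2 islands higher in *Tet/Tet* neurons by 10 points or more were those of Fgf13, from 0 to 20%, and Gria3, from 86.1 to 100%, both in introns on chromosome X over 5 and 6 sites, and the next was 8.91 points in Plekhg5 (first exon, 50 sites). From *R1* ESCs to *R1* neurons, the largest differences upward were from 0 to 100% in Cd46, Cadps2 and Pde1c over 5 sites each, and the largest downward were from 16.9 to 1.51% in F630040K05Rik (46 sites), from 10 to 0% in A130010J15Rik (5 sites) and from 13.1 to 3.16% in Plekhg5. Highest in *Tet/Tet* neurons were Gria3, Pdzrn4 and Arhgef28 at 100% over 5 or 6 sites.

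Among the 1398 islands with 20 or more shared sites, a limit set after seeing the data, the differences in ESCs were smaller. The largest differences upward were in Gpc5, a glypican gene (intron, 22 sites), from 44.6 to 66.6%, in Matn4, a matrilin gene (internal exon, 21 sites), from 25.3 to 43.6%, and in Triqk (intron, 38 sites) from 62.1 to 79.3%. The largest downward were in Gm32857 (intron, 23 sites) from 25.4 to 6.63%, Uty (intron, 21 sites) from 62.8 to 47.4%, and F630040K05Rik (intron, 46 sites) from 16.9 to 1.78%. In neurons the largest downward were in Ywhag, which encodes a 14-3-3 protein (last exon, 23 sites), from 96.5 to 15.4%, Daxx, a histone chaperone gene (internal exon, 23 sites), from 93.8 to 13.4%, and Uty from 96.4 to 17.5%. Differences of this size in neurons were therefore also found in islands with many sites, whereas the largest of these islands' differences in ESCs was 22.0 points. The highest such islands in *Tet/Tet* neurons were the repeat-derived intron islands of Stam at 44.4%, Klf12 at 38.4% and Slc7a15 at 38.2%.

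Within an island the sites spread more at levels between 10 and 90% than over all islands. Many islands lay under 10%, where there is little room for a spread. The median SD over an island's sites was 6.59 (*R1*) and 6.30 points (*Tet/Tet*) in ESCs and 8.45 and 6.55 points in neurons. For islands between 10 and 90% it was 17.3, 17.2, 16.8 and 12.7 points. The value for *Tet/Tet* neurons was the lowest, but these islands were chosen in each library separately. In *Tet/Tet* neurons 1193 islands lay from 10 to 50% and 34 from 50 to 80%, against 519 and 335 in *R1* neurons. The spread was not compared at equal levels.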

How the data were processed

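DNA methylation was measured by RRBS in 4 libraries, 1 per condition. Per the labels and the study's methods, the authors trimmed reads with Trim Galore 0.6.4, checked them with FastQC 0.11.8, mapped them to mm10 with Bismark 0.19.0 and called CpGs with MethylDackel 0.3.0. The authors deposited 1 value per CpG, the methylated share of its reads in percent, not normalized between libraries and without read counts, so depth is unknown and no interval that needs it is given. Fisher's exact test, which the study's methods name, could not be applied to a percent.

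CpG islands were called on the GRCm38 sequence with a running score of 17 per CpG and -1 per other base, then filtered. Islands were placed with GENCODE M21. Exon classes used the basic set of transcripts of all genes that contained the island, and any overlap counted. Soft-masked bases of the reference were taken as repeat. Differences of at least 10 percentage points were counted. The scripts, run with Python 3.11.15, numpy 2.4.6, pandas 2.3.3 and matplotlib 3.10.9, were tested on simulated data. Chromosomes 1 to 19, X and Y were used.

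The islands, gene lists and rules were chosen with earlier results of these data known. Named were the 3 islands with the largest differences in each direction in each comparison, the 3 highest in *Tet/Tet* neurons, the 5 first exon and 5 last exon islands with the most shared sites, and up to 4 islands per gene list by number of shared sites. Other names were chosen after the values were seen. Alternatives changed the minimum of sites, the island definition, the distance from starts, the host genes, the sites, the chromosomes, the size of a counted difference and the exon classes.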

Additional observations from a re-analysis of the deposited data

Results flagged for a closer look

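In 10 of the islands named above the difference between *Tet/Tet* and *R1* went one way in ESCs and the other way in neurons, by at least 10 points each. With 1 library per condition this was not tested, and the value given is the difference in neurons minus that in ESCs. Of the 10, 6 were among the islands with the largest differences and rested on 5 to 11 sites. They were Pdzrn3 (-133.6 points), Adamts12 (-104.8), Gm47782 (-80.7), Cd46 (-140), Pde1c (-70) and Gria3 (26.1), of which only Gria3 was lower in *Tet/Tet* ESCs and higher in *Tet/Tet* neurons. The other 4 had 21 sites or more. They were the Gnas island over both kinds of end exon (-51.9), Gpc5 (-80.4), Matn4 (-87.9) and Triqk (-75.2). Gpc5, Matn4 and Triqk had been named as the largest differences upward in ESCs among islands with 20 or more sites. Since most islands higher in *Tet/Tet* ESCs were lower in *Tet/Tet* neurons, that choice largely set their opposite directions. The Gnas island had been named from the list of imprinted genes. In Gnas the difference was 16.4 points in ESCs and -35.6 in neurons over 97 sites. Over all 3034 islands, 177 (5.83%) were higher in *Tet/Tet* ESCs and lower in *Tet/Tet* neurons by at least 10 points, and 1 had the reverse. Most islands that differed in ESCs were lower in *Tet/Tet* neurons whichever way they went, 177 of the 186 higher ones and 110 of the 117 lower ones. That direction held for 60.2% of all 3034 islands and for 34.5% of all 14790 islands. The 177 and the 110 had medians of 92.9% and 88.9% in *R1* neurons, against 37.4% over all 3034. Whether their counts exceed those of other islands at such levels was not tested. Of those 177, 97 had 50% or more of their bases in repeat sequence, against 561 of all 3034 (18.5%).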

How the results depend on the processing

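Groups of 4 values are *R1* and *Tet/Tet* in ESCs, then the same in neurons. With at least 10 shared sites, 2329 islands remained. Their medians were 3.76, 3.03, 15.7 and 4.01%, and the shares at 50% or more 3.52, 4.38, 35.7 and 0.429%. Of these islands 3.56% were higher and 1.55% lower in *Tet/Tet* ESCs, and in neurons 0% were higher and 52.1% lower, with a median of -12.2 points. First minus last exon islands was -44.2 points in *R1* neurons. Under the stricter definition, 1130 islands had medians of 2.79, 2.54, 5.98 and 3.11%, and 1.86, 1.95, 22.2 and 0.0885% were at 50% or more. Higher and lower in *Tet/Tet* were 2.04 and 1.68% in ESCs (median -0.0543 points) and 0 and 38.4% in neurons (median -3.39), and first minus last exon islands was -1.71, -0.46, -31.6 and -3.04 points. Over 1 kb from any transcript start, 1804 islands had medians of 10.9, 9.64, 81.4 and 13.7%, and 11.8, 13.3, 66.7 and 2.38% were at 50% or more. In ESCs 9.15% were higher and 5.54% lower (median -0.42 points), and in neurons 80.5% were lower (median -58.2). First minus last exon islands was -7.86 points in *R1* neurons and changed direction in the other 3 libraries, to 0.0501, 1.46 and 3.38 points. This choice left 14 of 770 first exon islands, and the cause of the change was not tested.

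Restricted to MspI fragments of 40 to 220 bp, medians were 3.80, 2.77, 24.9 and 4.23%, and 4.79, 5.98, 42.0 and 0.633% were at 50% or more, with 4.31% higher and 1.90% lower in ESCs, 56.0% lower in neurons and a median of -20.2 points there. Without sites in repeat sequence, medians were 3.62, 2.95, 15.3 and 3.95%, and 2.64, 3.53, 34.2 and 0.284% were at 50% or more. In ESCs 3.49% were higher and 2.35% lower (median -0.22 points), and in neurons 0% higher and 51.6% lower (median -11.7). Protein-coding hosts alone gave 6.30 and 7.10% at 50% or more in the ESC libraries. On autosomes 0% were higher in *Tet/Tet* neurons. A difference of 25 points counted 0.923% higher and 0.527% lower in ESCs, and 0% and 52.0% in neurons. Over sites listed in both ESC tables, 7.09% were higher and 4.82% lower, and over sites that both neuron libraries listed, 64.6% were lower, with a median of -40.8 points. The cause of these shifts was not tested, apart from fewer or other islands entering by construction. First minus last exon islands in *R1* neurons was -67.6 points with all transcripts and -65.4 by an island's middle base. With unknown depth, single sites cannot be weighed, and islands of 5 to 7 sites are the least certain. No paired analysis was possible because each condition had 1 library.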

Other observations

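In the part of the genome that was not analysed for *Tet/Tet* neurons, 1327 further islands met the rule's conditions on position, and 818 of them had at least 5 sites listed in the other 3 libraries. Their medians were 5.85% (*R1*) and 4.70% (*Tet/Tet*) in ESCs and 63.3% in *R1* neurons. The 207 first exon islands among them were at 3.26% in *R1* neurons and the 151 last exon islands at 80.9%. These islands took no part in the comparisons above, and the contrast between first and last exons in *R1* neurons was present in them too.

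The 6 islands at 80% or more in all 4 libraries lay in introns of Pigk, Pdzd2, Ptprm, Kcnn2, Gm30524 and Arhgef28, and had 5 to 8 shared sites. All were repeat sequence over 97.6% of their bases or more. The island in Ptprm, a receptor-type tyrosine phosphatase gene (chr17:67001255-67001711, 7 sites), was at 91.4% (*R1*) and 91.5% (*Tet/Tet*) in ESCs and at 97.8% and 97.1% in neurons. The number of reads behind these sites is unknown.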
